A study of Mus musculus with 8 samples.

Results

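RNA abundance of 10 genes of neutrophil granules was examined in 7 sorted populations of mouse bone marrow and in unsorted bone marrow. The genes were listed by name, and all 10 were found among the 49315 genes counted. They were Elane, Mpo, Ctsg and Prtn3 (4 genes of the early granules), Camp, Ngp, Ltf and Lcn2 (4 genes of the late granules), and the cytosolic pair S100a8 and S100a9. The sample labels give all mice as wild type C57BL/6J of 6 weeks and name no treatment. The Methods name the substrain C57BL/6JJcl. Clusters 1 to 7 were bone marrow stromal populations collected by surface antigens after gating for cells negative for CD31, CD45 and Ter119. By its gate, cluster 1 was CD24- Sca-1+ CD39+, cluster 2 was Ly-6C- CD39- CD24-, cluster 3 was Ly-6C+ CD24+ and negative for CD39 and CD54, cluster 4 was Ly-6C- CD54+ CD24-, cluster 5 was CD54+, CD24- and Ly-6C- without CD121b, cluster 6 was CD24+ Sca-1- CD39-, and cluster 7 was CD54- Sca-1+ and negative for CD24 and Ly-6C. The input was labelled as bone marrow and its sequencing is not described in the study's text. Each population had 1 library, so no difference between libraries has a replicate check and no test was made. The number of animals pooled for a library is not given in the sources used here. The total count was 24205863, 25349917, 27102715, 32549319, 12833648, 31669132 and 33238133 in clusters 1 to 7, and 20162876 in the input. Levels are given as RPKM (reads per kilobase of exon, scaled to the total count), and values for clusters 1 to 7 follow that order. Intervals are 95% intervals of counting error only, because each population had 1 library. PCR copies could not be told from independent molecules, so the intervals may be too narrow even for counting error.

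Neutrophils are made in the bone marrow, and their granules are filled in order as the cells mature. Promyelocytes make the azurophil (primary) granules with myeloperoxidase and the serine proteases, and the genes of the specific (secondary) granules are switched on later, in myelocytes and metamyelocytes, when the genes of the first class have been switched off. S100A8 and S100A9 form calprotectin, which fills the cytosol of mature neutrophils and is not a granule protein. The transcription factor PU.1, with C/EBP alpha, is known to act on the first class, and C/EBP epsilon on the second.

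On GRCm38, the build of the coordinates in the count tables, the genes lie on 6 chromosomes. Among the early genes, Elane (ENSMUSG00000020125) at chr10:79886312-79888216 and Prtn3 (ENSMUSG00000057729) at chr10:79874476-79883174 are neighbours on the plus strand, Mpo (ENSMUSG00000009350) at chr11:87793581-87804413 is on the plus strand and Ctsg (ENSMUSG00000040314) at chr14:56099881-56102574 on the minus strand. Of the late genes 3 share a chromosome, with Camp (ENSMUSG00000038357) at chr9:109847379-109849617 on the minus strand, and Ngp (ENSMUSG00000032484) at chr9:110419747-110423012 and Ltf (ENSMUSG00000032496) at chr9:111019271-111042767 on the plus strand. Lcn2 (ENSMUSG00000026822) at chr2:32384633-32388252 is on the minus strand. S100a8 (ENSMUSG00000056054) at chr3:90668978-90670035 on the plus strand and S100a9 (ENSMUSG00000056071) at chr3:90692632-90695721 on the minus strand lie close together. Exons of these genes sum to between 522 bases (S100a9) and 3450 bases (Ltf), and counts over all exons were used.

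The promoters of 2 early and 2 late genes are shown because their letters differ at the motifs of these factors. Each window ran from 250 bases before to 50 bases after the transcript start, was taken from RefSeq on GRCm38.p6, and is written 5′ to 3′ on the strand of the gene. All 10 genes were matched. Elane was on the plus strand at chr10:79886062-79886361, Prtn3 on the plus strand at chr10:79879417-79879716, Ngp on the plus strand at chr9:110419558-110419857 and Ltf on the plus strand at chr9:111019042-111019341. Capitals mark matches to GAGGAAGT (an ETS-type motif of the PU.1 class) in Elane and Prtn3, and to TTNNGCAA (C/EBP type) in Ngp and Ltf.
Elane: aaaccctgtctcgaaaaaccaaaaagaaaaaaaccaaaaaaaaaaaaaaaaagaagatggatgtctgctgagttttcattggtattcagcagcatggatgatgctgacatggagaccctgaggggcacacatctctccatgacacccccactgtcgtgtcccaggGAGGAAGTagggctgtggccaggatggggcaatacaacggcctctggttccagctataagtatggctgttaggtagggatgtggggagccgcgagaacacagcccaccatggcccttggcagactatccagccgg
Prtn3: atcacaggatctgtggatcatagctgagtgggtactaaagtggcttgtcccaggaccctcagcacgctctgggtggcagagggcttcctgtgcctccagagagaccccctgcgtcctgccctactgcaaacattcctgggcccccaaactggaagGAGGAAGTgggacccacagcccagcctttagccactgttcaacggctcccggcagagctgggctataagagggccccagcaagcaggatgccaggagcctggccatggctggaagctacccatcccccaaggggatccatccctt
Ngp: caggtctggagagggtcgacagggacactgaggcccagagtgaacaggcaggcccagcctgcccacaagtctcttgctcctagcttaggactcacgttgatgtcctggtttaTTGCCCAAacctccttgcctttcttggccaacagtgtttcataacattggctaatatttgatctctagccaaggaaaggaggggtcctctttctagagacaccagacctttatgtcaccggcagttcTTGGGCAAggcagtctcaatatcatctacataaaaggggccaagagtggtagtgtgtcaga
Ltf: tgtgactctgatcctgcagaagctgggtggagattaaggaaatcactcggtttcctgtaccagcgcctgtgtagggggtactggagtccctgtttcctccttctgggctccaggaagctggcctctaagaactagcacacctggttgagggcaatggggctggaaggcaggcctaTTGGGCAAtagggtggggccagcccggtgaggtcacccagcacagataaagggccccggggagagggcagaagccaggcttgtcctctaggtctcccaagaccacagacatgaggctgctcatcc
Both strands were searched, so the reverse letters ACTTCCTC and TTGCNNAA were counted too, and no match of one motif overlapped a match of the other. GAGGAAGT was found in 3 of the 4 early promoters, in 0 of the 4 late promoters and in 1 of the 2 cytosolic promoters. Its match began 85 bases before the start in Elane, 95 bases before it in Prtn3 and 224 bases before it in Mpo, and S100a8 held the reverse letters. TTNNGCAA was found in 0 of the 4 early promoters, in 3 of the 4 late promoters (Ngp with 2 matches, Ltf and Lcn2) and in S100a9. Among all 32851 promoters of the same length, 3.20% held GAGGAAGT and 10.8% held TTNNGCAA. The promoters of Ctsg and Camp held neither. A match describes letters only, and binding was not measured here.

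Libraries that stood apart were looked for before the levels were compared. Lars2, Rn18s-rs5 and mmu-mir-689-2 (3 loci) took 34.8% of the reads of cluster 5, 10.4% of those of cluster 2 and 0.274% of those of cluster 7, so RPKM of the remaining genes is lowered in cluster 5. Reads of haemoglobin genes made up 5.21% of cluster 5 and 0.120% of cluster 6. The input also stood apart, since 65.8% of the 991 olfactory receptor genes, which marrow cells should lack, had at least 3 counts in it, against 1.82% to 26.3% in the sorted libraries. The stromal label was met in part. Col1a1 and Col1a2, the chains of type I collagen, were above the input in all 7 sorted libraries, Col1a1 at 1962.0 (cluster 4) to 15952.1 RPKM (cluster 6) with 690.5 in the input. Pdgfra, a receptor of mesenchymal cells, was at 28.1, 4.37, 18.1, 19.8, 7.51, 7.44 and 26.4 RPKM in clusters 1 to 7 and at 14.1 in the input, hence below it in clusters 2, 5 and 6, and with TMM factors in cluster 2 alone. Cxcl12, the chemokine of niche cells, was at 5.04 (cluster 6) to 139 RPKM (cluster 4) and was below the input (27.0) in clusters 2, 3 and 6. Lepr, the leptin receptor, was below the input in 5 of the 7 sorted libraries (4 with TMM factors). Kitl, the ligand of Kit, was below it in cluster 6 alone (0.980 against 1.54 RPKM), and in no sorted library with TMM factors. The sorted cells had been gated without CD45, and RNA of Ptprc, the gene of CD45, was at 1.69 (cluster 3) to 9.26 RPKM (cluster 7), against 13.5 in the input.

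Among the sorted libraries the early genes were by totals all highest in cluster 7, and each was lowest in cluster 1 or cluster 3. Elane was highest in cluster 6 with TMM and with DESeq2 factors, and Mpo with DESeq2 factors. Elane encodes neutrophil elastase, the serine protease of the azurophil granule. Elane was at 94.2, 161, 138, 188, 130, 371 and 478 RPKM in clusters 1 to 7, and 776 in the input. Cluster 7 was 5.07-fold above cluster 1 (4.84 to 5.31), and all 7 sorted libraries lay below the input. Mpo, the gene of myeloperoxidase, which makes hypochlorous acid, was at 67.3, 68.1, 80.6, 117 (cluster 4), 67.7, 292 (cluster 6) and 394 RPKM (cluster 7) in the order of the clusters and at 545 in the input. By totals clusters 1, 2 and 5 could not be ordered, since their intervals overlapped (65.6 to 69.1, 66.4 to 69.9 and 65.3 to 70.2). With TMM factors these 3 clusters were at 60.9, 68.4 and 91.5 RPKM. Cluster 7 was by totals 5.85-fold above cluster 1 (5.69 to 6.02).

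Ctsg and Prtn3 were the least abundant of the 10 genes in each of clusters 1 to 7 and in the input. Ctsg, the gene of cathepsin G, was at 25.2, 43.1, 25.2, 39.5, 27.1, 62.3 and 104 RPKM in clusters 1 to 7, and 132 in the input. The lowest count of any gene of the list was that of Ctsg in cluster 5, 348 reads, so none of the 80 levels was near the limit of detection. Prtn3, the gene of proteinase 3, was at 39.3, 61.0, 40.8, 42.1, 39.9, 49.6 and 78.2 RPKM in clusters 1 to 7, and 109 in the input. Prtn3 varied least among the sorted libraries (1.99-fold, 1.88 to 2.11), and its second-highest level was in cluster 2 by totals and in cluster 6 with TMM factors (63.9 against 61.3 in cluster 2). The exons counted for Prtn3 begin upstream of the RefSeq start and the gene overlaps BC005764 on the opposite strand, as Mpo overlaps Gm11505. Whether the counting used strand is not given in the sources used here, so reads of these partners cannot be told apart.

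The late genes were abundant in all libraries and split into 2 patterns. Ngp, Ltf and Lcn2 were highest in cluster 7, with clusters 4, 5 and 6 next, and Camp was highest in cluster 5. Ngp encodes neutrophilic granule protein, a cystatin-like protein of the specific granules. Ngp was at 1368.9, 1697.7, 1195.5, 3297.7, 2964.1, 3424.7 and 6416.4 RPKM in clusters 1 to 7, and 10840.6 in the input. Ltf, the gene of the iron-binding protein lactoferrin, was at 147, 175, 141, 489, 300.0, 555 and 1180.7 RPKM in clusters 1 to 7, and 1078.9 in the input. Ltf had the widest span of the 10 genes (8.35-fold between clusters 7 and 3, 8.20 to 8.50) and by totals was the only one above the input in any sorted library, at 109% of it in cluster 7.

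Lcn2 encodes lipocalin 2, which binds bacterial siderophores. Lcn2 was at 116, 119, 87.9, 284, 233, 226 and 446 RPKM in clusters 1 to 7, and 486 in the input. Clusters 1 to 3 were the lowest for Ngp, Ltf and Lcn2 alike. Camp, the gene of the cathelicidin antimicrobial peptide, was at 1383.6, 1675.2, 1283.4, 1845.0, 3089.7, 1469.3 and 2756.8 RPKM in clusters 1 to 7, and 3547.5 in the input. Its level in cluster 5 was above that in cluster 7 beyond counting error (3054.8 to 3124.8 against 2736.4 to 2777.4), and cluster 6, among the 3 highest for Ngp and Ltf, was the third lowest for Camp by totals, though the third highest with TMM factors (1893.9).

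S100a8 and S100a9, the calprotectin subunits, were the most abundant of the 10 genes in every sorted library and, like Camp, stood highest in cluster 5 and next in cluster 7. S100a8 was at 4311.7, 5175.2, 3132.3, 4165.2, 7878.1, 3821.4 and 7150.7 RPKM in clusters 1 to 7, and 10797.3 in the input. S100a9 was at 6712.9, 6958.8, 4834.2, 6852.9, 11033.3, 5138.0 and 10329.3 RPKM in clusters 1 to 7, and 14744.8 in the input. Both were lowest in cluster 3 and spanned 2.52-fold (2.49 to 2.54) and 2.28-fold (2.26 to 2.31). In these bulk libraries, fewer cells of a type and less RNA per cell cannot be told apart.

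**Figure D1:**
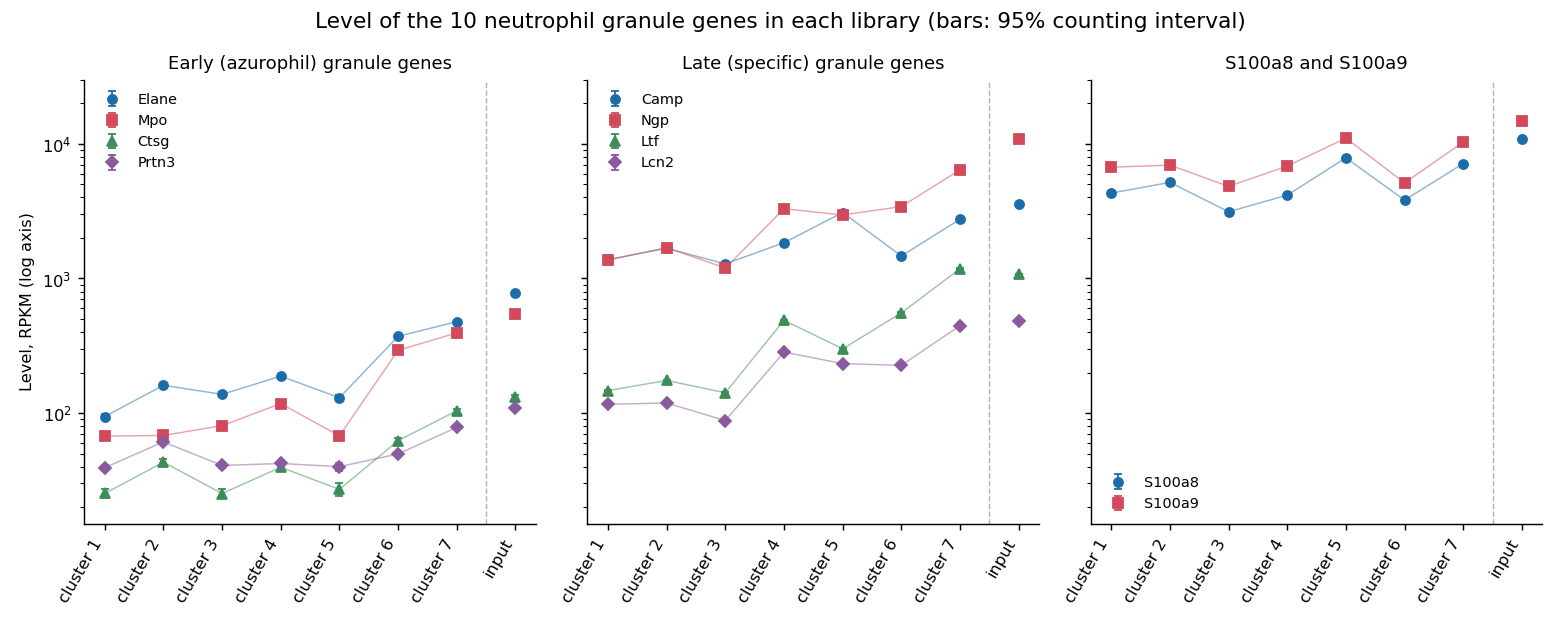
RPKM (log axis) of the 4 early, 4 late and 2 cytosolic genes in clusters 1 to 7 and the input (1 library each, points), with bars for the 95% counting interval where it is wider than the symbol. By totals, as plotted, the early genes stand highest in cluster 7 among the sorted libraries (Elane in cluster 6 with TMM factors), whereas Camp, S100a8 and S100a9 peak in cluster 5.

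The 10 genes together took 1.04%, 1.20%, 0.835%, 1.50%, 1.93%, 1.46% and 2.76% of the counts of clusters 1 to 7, and 3.90% of those of the input. Their Wilson intervals were narrow, the widest in a sorted library being 1.92% to 1.94% in cluster 5. Among the sorted libraries, 7 of the 10 genes were highest in cluster 7, where 25.3% of the 12360 genes with RPKM above 2 in a sorted library were highest. The other 3, Camp, S100a8 and S100a9, were highest in cluster 5, against 4.73% of all genes. The lowest level was in cluster 3 for 7 genes (8.11% of all genes) and in cluster 1 for Elane, Mpo and Prtn3 (3.82%), with Ctsg at nearly the same level in both (25.22 and 25.23 RPKM). With TMM factors the majority turned, with 6 genes lowest in cluster 1 (8.94%) and 4 in cluster 3 (12.1%). The highest and the lowest library differed by more than 2-fold (RPKM + 1) for 9 of the 10 genes, with Prtn3 just short of it, against 70.6% of all genes, and the median log2 span was 2.17 against 1.26 over all genes. With TMM factors, which correct the totals for a few dominant genes, 6 genes were highest in cluster 7 (17.1% of all genes), Camp, S100a8 and S100a9 stayed highest in cluster 5 (11.6%), and Elane was highest in cluster 6 (20.9%). By totals and without cluster 5, all 10 genes were highest in cluster 7.

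Set against the input, the shortfall of the genes was deepest in clusters 1 to 3 and under 2-fold in cluster 7. More than 2-fold below the input (RPKM + 1) were 10, 9, 10, 8, 7, 8 and 0 of the 10 genes in clusters 1 to 7. Over all genes tested the same threshold was passed by 41.6%, 47.9%, 46.5%, 45.5%, 61.0%, 53.6% and 39.4% in clusters 1 to 7. The median gene of all those tested was itself below the input, by log2 -0.60 in cluster 7 to log2 -1.25 in cluster 5. The 10 genes had a median log2 of -2.20, -1.81, -2.40, -1.36, -1.63, -1.11 and -0.47 in clusters 1 to 7. In cluster 6 the median of all genes was also -1.11, and in cluster 7 the latter was -0.60. These medians include genes that passed RPKM 2 in the input alone. Over genes above RPKM 2 in all 8 libraries, as the 10 genes are, the medians were less low. In cluster 6 they were -0.64 for 628 genes with under 1000 bases of exon and -0.52 for 6448 longer genes. In cluster 7 they were -0.31 and -0.12.

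With TMM factors the median of all genes moved to between log2 -0.18 and 0.14, and the counts of the 10 genes below the input became 6, 5, 7, 4, 3, 0 and 0 in the order of the clusters, against 27.3%, 28.8%, 29.5%, 27.3%, 26.6%, 28.3% and 25.9% of all genes. The count of the 10 genes was thus above the share of all genes under both scalings in clusters 1 to 5, by less than 1 gene in cluster 5 and, with TMM factors, by about 1 gene in cluster 4. It was below that share in cluster 7 under both scalings and in cluster 6 with TMM factors. All 7 sorted libraries were below the input for 9 of the 10 genes (59.8% of all genes), the exception being Ltf, and for Elane and Ngp alone with TMM factors (29.6%). With TMM factors Camp was at 188% of the input in cluster 5 and Ltf at 169% in cluster 7.

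**Figure D2:**
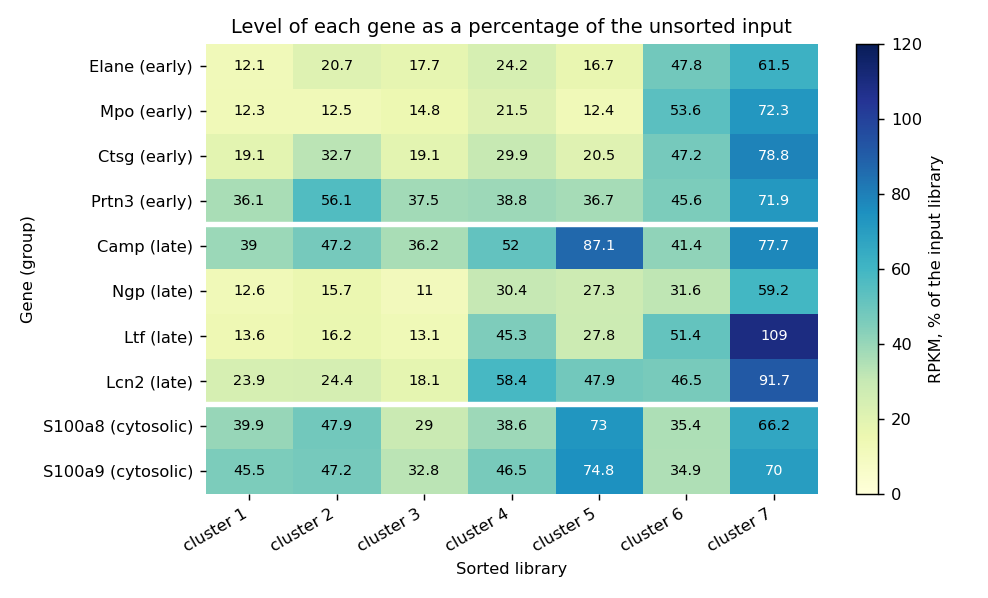
RPKM of each gene in the 7 sorted libraries as a percentage of its RPKM in the input (1 library each; colour and printed value). Values run from 11.0% for Ngp in cluster 3 to 109% for Ltf in cluster 7, and Camp stands at 87.1% in cluster 5 (by totals; with TMM factors Ltf in cluster 7 is at 169% and Camp in cluster 5 at 188%).

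Comparison of the early with the late genes used the median of log2(RPKM + 1) over the 4 genes of each group. The late median was above the early median in all 8 libraries. The difference was 3.10, 3.05, 2.82, 3.73, 4.16, 2.73 and 3.15 in clusters 1 to 7, and 2.86 in the input, all in log2. It was largest in cluster 5, where late genes were at 17.8-fold the early ones, and smallest in cluster 6, with 6.63-fold. With means over the 4 genes in place of medians, cluster 5 was still the largest (3.98), but cluster 3 (2.65) came below cluster 6 (2.71). Clusters 5 and 6 had late medians of 9.88 and 9.82 and early medians of 5.73 and 7.09 (10.3, 10.2, 6.16 and 7.45 with TMM factors). The near-equal late medians held members that went both ways, with Camp higher in cluster 5 and Ltf higher in cluster 6. A library factor cancels in this difference, and TMM factors left it at 4.16 in cluster 5 and 2.73 in cluster 6. In clusters 1, 4 and 5 each late gene was above each early gene. In the other 5 libraries Lcn2 was below Elane, and no other late gene was.

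**Figure D3:**
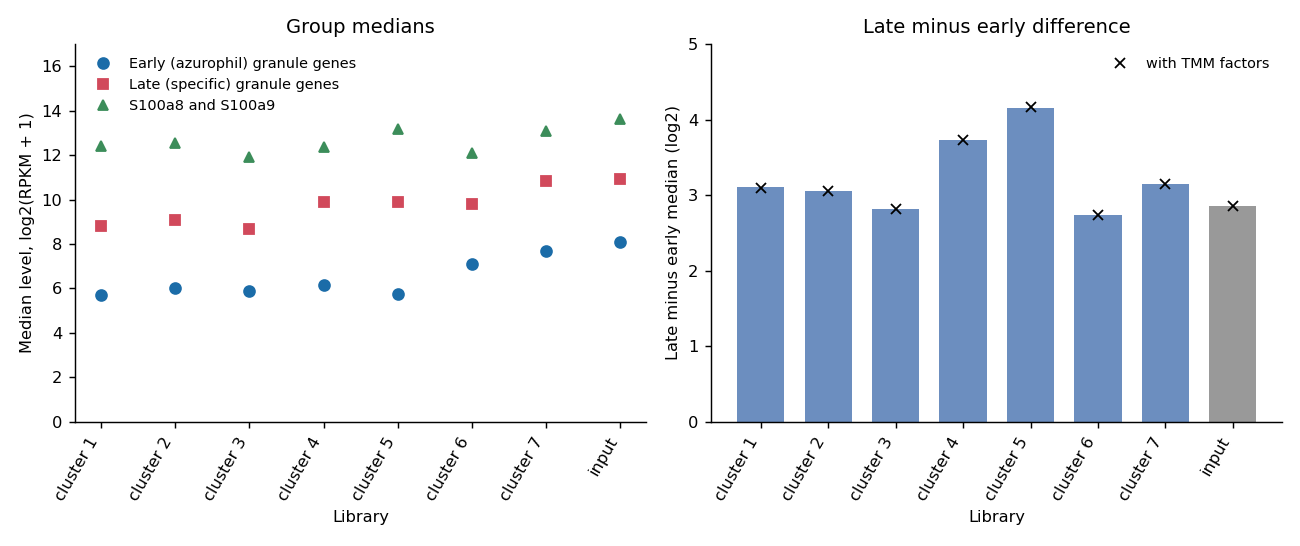
Left, median log2(RPKM + 1) of the early, late and cytosolic genes in each library. Right, late minus early median (bars, log2) with the values under TMM factors as crosses, which reach 4.16 in cluster 5 and 2.73 in cluster 6.

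The span of the late minus early difference over the sorted libraries was 1.43 in log2 (± 0.0797 of counting error), that of the late median was 2.13 (cluster 7 over cluster 3) and that of the early median was 1.96 (cluster 7 over cluster 1). The late median is the mean of the 2 middle genes, Ltf and the lower of Camp and Ngp, and so rests on which genes are counted as late. Without Lcn2 the difference spanned 2.37, and with S100a8 and S100a9 counted as late it spanned 1.79, in both cases with cluster 5 highest and cluster 6 lowest. The span of the late median was 1.31 without Lcn2, with cluster 5 highest, and 1.20 without cluster 7.

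Ratios of genes within a library, which no library factor can change, separated the libraries further. Ngp over Camp was 0.989, 1.01, 0.932 and 0.959 in clusters 1, 2, 3 and 5. The same ratio was 1.79 in cluster 4, 2.33 in both clusters 6 and 7, and 3.06 in the input (3.03 to 3.08). The sorted libraries thus fell into a set near 1 and a set of clusters 4, 6 and 7 with more Ngp than Camp, and each value of the second set lay beyond the counting intervals of the first. Ltf over Camp kept the same sets, at 0.0971 to 0.110 in clusters 1, 2, 3 and 5 and at 0.265, 0.377 and 0.428 in clusters 4, 6 and 7. Mpo over Camp, an early against a late gene, ran from 0.0219 in cluster 5 (0.0211 to 0.0228) to 0.199 in cluster 6 (0.196 to 0.202), a 9.08-fold span and the widest of the 12 ratios computed. S100a9 over S100a8 was between 1.34 and 1.65, a 1.22-fold span that still exceeded counting error, and Camp over S100a8 was between 0.321 and 0.443. Among early genes, Prtn3 over Elane ran from 0.134 in cluster 6 to 0.417 in cluster 1, and Mpo over Elane from 0.424 in cluster 2 to 0.825 in cluster 7.

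**Figure D4:**
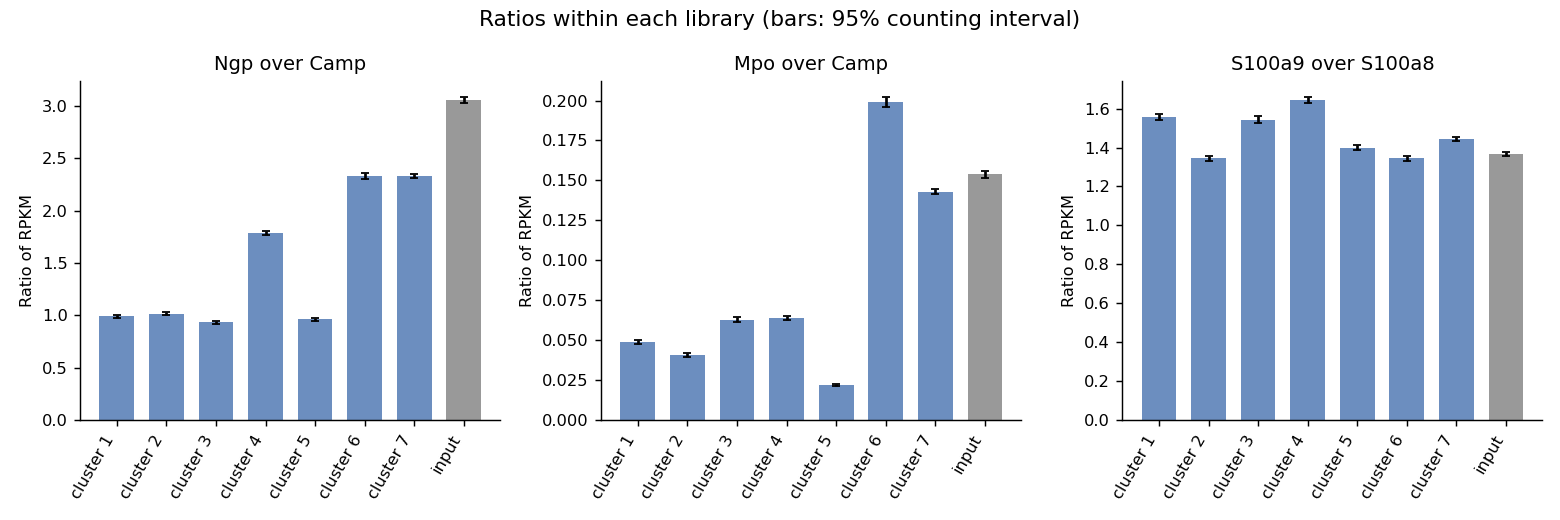
Ratios of RPKM within each library (1 library each; bars start at 0, error bars are 95% counting intervals) for Ngp over Camp, Mpo over Camp and S100a9 over S100a8. Ngp over Camp is near 1 in clusters 1, 2, 3 and 5 and 1.79 to 2.33 in clusters 4, 6 and 7, whereas S100a9 over S100a8 stays within 1.34 to 1.65.

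Likeness of the patterns was described by Pearson's r of log2(RPKM + 1) over the 7 sorted libraries, where the points share library totals and composition. Within the early genes the median r of the 6 pairs was 0.897, from 0.650 (Mpo and Prtn3) to 0.965 (Elane and Mpo). Within the late genes the median was 0.847, but Ngp, Ltf and Lcn2 had r of 0.958 to 0.985 with each other and 0.576 to 0.735 with Camp. Camp had r of 0.939 with S100a8 and 0.944 with S100a9. The median over the 16 pairs of an early and a late gene was 0.732, and over the 8 pairs of an early and a cytosolic gene 0.220. The patterns did not follow granule class alone, since Ltf was nearer to Elane (0.889) than to Camp (0.576). With TMM factors these r were 0.903 and 0.629, and Camp with S100a9 was 0.968.

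**Figure D5:**
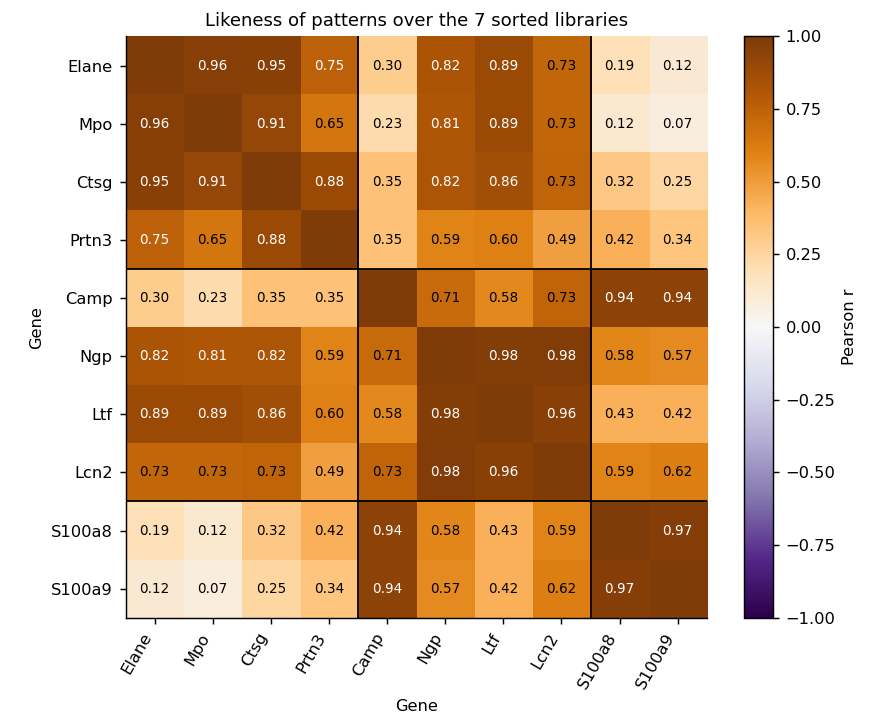
Pearson's r (colour and printed value) between the log2(RPKM + 1) values of each pair of the 10 genes over the 7 sorted libraries; lines part the early, late and cytosolic genes. Camp is at 0.939 with S100a8 and 0.944 with S100a9, whereas Ngp, Ltf and Lcn2 are at 0.958 to 0.985 with each other.

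The genes most alike the early median among 7452 genes were Ly75 (r = 0.995), Rgs19 (0.982), Atp2a3 (0.976), Adpgk (0.974) and Mcm5 (0.973). Ly75, the endocytic receptor DEC-205, was at 0.429 RPKM in cluster 5 and 2.59 in cluster 7. Mcm5 belongs to the replicative helicase, and Atp2a3 is the SERCA3 calcium pump of blood cells. The genes most alike the late median were Lrg1 (0.986), Srgn (0.976), Plbd1 (0.971), Emr1 (0.970) and Chi3l7 (0.965). Srgn encodes serglycin, the proteoglycan that packs granule proteins, and was at 55.4 RPKM in cluster 3 and 251 in cluster 7. Emr1 encodes the macrophage antigen F4/80. Of each set of 5, 2 genes were also among the 5 most alike with TMM factors (Ly75 and Adpgk, and Lrg1 and Srgn).

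Other genes of neutrophils were mostly highest in cluster 7 too, also with TMM factors except where said. The list of 9 other late genes held Mmp8, Mmp9, Cd177, Hp, Chil3, Itgb2l and Retnlg, with the factor gene Cebpe and the receptor gene Ltb4r1. All 9 spanned more than 2-fold among the sorted libraries (70.6% of all genes). Of them, 8 were highest in cluster 7 (25.3% of all genes, 17.1% with TMM factors), Retnlg being highest in cluster 5. Mmp9, the gelatinase of the tertiary granules, was at 8.59, 84.4 and 130 RPKM in clusters 3, 4 and 7 and at 52.6 in the input. By totals clusters 4 and 7 thus lay at 160% and 246% of the input. With TMM factors they lay at 262.5% and 380%, and cluster 6 moved from 90.9% to 187%. Mmp8, the neutrophil collagenase, was at 16.4 RPKM in cluster 3 and 192.7 in cluster 7, with 210 in the input. Cd177, a surface and granule protein of neutrophils, was at 15.1 RPKM in cluster 1 and 229 in cluster 7, with 176 in the input. More than 2-fold below the input were 8 of these 9 genes in each of clusters 1, 2 and 3, 5 genes in each of clusters 4 and 6, 7 in cluster 5 and 0 in cluster 7. With TMM factors the 7 counts were 7, 7, 8, 2, 3, 0 and 0, so clusters 4 to 6 lost most or all of theirs. The shares of all genes are those given above for the 10 genes, with the same limit, 39.4% to 61.0% by totals and 25.9% to 29.5% with TMM factors.

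Of 7 other early neutrophil genes, 6 spanned more than 2-fold against 70.6% of all genes, and 6 were highest in cluster 7 (4 with TMM factors), against 25.3% (17.1%) of all genes. Fcnb, the gene of ficolin B, was at 24.3, 78.8 and 100.4 RPKM in clusters 1, 6 and 7 and at 139 in the input. Ms4a3, a marker of granulocyte and monocyte progenitors, was at 13.3 RPKM in cluster 1 and 36.6 in cluster 7, with 45.9 in the input. By totals the exception was Cebpa, highest in cluster 5 at 3.46 RPKM, where its interval (2.86 to 4.145) overlapped those of clusters 1, 2 and 4. Cebpa was above the input (1.24) in all 7 sorted libraries. With TMM factors Fcnb and Prss57 were exceptions too, being highest in cluster 6. The factor genes were low throughout. Gfi1, a repressor needed for granulocyte maturation, was at 0.691 to 2.74 RPKM and at 0.688 in the input. Cebpe, the factor of the specific granule genes and counted above with the other late genes, was at 3.10 to 7.80 RPKM and at 5.17 in the input.

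Receptors of mature neutrophils were highest in cluster 7 for 5 of 5 genes, against the same shares of all genes (25.3% and 17.1% with TMM factors). Csf3r, the G-CSF receptor, was at 4.41 RPKM in cluster 3 and 33.1 in cluster 7, with 25.8 in the input, and Cxcr2, a chemokine receptor, was at 1.80, 16.4 and 9.05 RPKM in the same libraries. Il1r2, which encodes CD121b, an antigen gated out of cluster 5, was by totals at 76.7 RPKM in cluster 5, nearly as in cluster 4 (76.6), and at 177 in cluster 7. With TMM factors Il1r2 was at 103.6 RPKM in cluster 5, 78.6 in cluster 4 and 171 in cluster 7. Of 9 partners and inhibitors, 8 passed RPKM 2 in a sorted library and 6 were highest in cluster 7 (5 with TMM factors), again against 25.3% (17.1%) of all genes. Slpi, an inhibitor of elastase and cathepsin G, was at 74.3 RPKM in cluster 3 and 290.1 in cluster 7, with 301 in the input. Ctsc, the protease that activates the azurophil serine proteases, was at 5.28 RPKM in cluster 2 and 25.7 in cluster 7, with 80.7 in the input. Cybb, the catalytic subunit of the phagocyte oxidase, was at 10.1 RPKM in cluster 3 and 71.5 in cluster 7, with 92.8 in the input. Slc22a17, a receptor of lipocalin 2, kept within 7.27 to 13.9 RPKM with 9.25 in the input, and Ager, a receptor of S100 proteins, was below 1 RPKM in all sorted libraries.

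Markers of neutrophils and monocytes were highest in the same library as most granule genes. All 5 surface genes of neutrophils (Ptprc, Itgam, Ly6g, Csf3r and Cxcr2) were lowest in cluster 3 (8.11% of all genes, 12.1% with TMM factors) and highest in cluster 7 (25.3% and 17.1%) under both scalings, Csf3r and Cxcr2 being also among the receptors counted above. Their summed RPKM was 41.2, 47.8, 24.1, 62.8, 56.0 and 56.8 in clusters 1 to 6, 139 in cluster 7 and 129 in the input. Ly6g, the defining surface gene of mouse neutrophils, was their most abundant gene, at 22.1, 33.1, 13.6, 40.4, 40.4, 23.9 and 63.9 RPKM in the order of the clusters and at 65.2 in the input. Of the genes of monocytes and macrophages, Cd68 was at 6.55 RPKM in cluster 3 and 32.4 in cluster 7. Ccr2, the receptor of a monocyte chemokine, was at 1.10 RPKM in cluster 3 and 7.14 in cluster 7. By totals these were the lowest and the highest sorted libraries of both genes. With TMM factors Cd68 was lowest in cluster 1 (6.40 against 6.65 RPKM in cluster 3). The 6 erythroid genes were all highest in cluster 5 (4.73% of all genes, 11.6% with TMM factors), with a summed RPKM of 68399.1 there against 1581.7 in cluster 6. The 5 B lineage genes summed to 110.3 RPKM in cluster 7 and 45.0 in cluster 3, with 249 in the input. Of them, 3 were highest in cluster 7 (25.3% of all genes, 17.1% with TMM factors). By totals Ebf1 was highest in cluster 1 (14.3 RPKM, with 14.0 in cluster 3 and 7.46 in cluster 7) and Vpreb1 in cluster 2 (11.3 RPKM). The 4 endothelial genes summed to 2.04 to 8.72 RPKM, the 4 eosinophil and basophil genes to 34.9 to 85.5 RPKM, and the 3 progenitor genes to 5.57 to 125 RPKM in the sorted libraries, with Cd34 the most abundant of the last in each library but cluster 6, where it was Myb. None of the marker genes was at 0 in any library. The summed RPKM of the 6 stromal genes, nearly all of it from Col1a1 and Col1a2, was 6739.4, 5274.4, 11694.3, 4135.2, 7012.8, 22055.6 and 4802.5 in clusters 1 to 7, with 1587.7 in the input. Their median log2(RPKM + 1) had another order, at 2.84 in cluster 6, the lowest, and 5.75 in cluster 4, the highest. The part of these cells in the levels of the granule genes was not tested.

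Gene length also moved with some of the contrasts. Elane, Camp, S100a8 and S100a9 have less than 1000 bases of exon. In cluster 5 their median log2 over the input was -0.44, against -1.86 for the 6 longer members, and in cluster 2 the medians were -1.08 and -2.32. They were -1.34 and -2.60 in cluster 1, -1.70 and -2.60 in cluster 3, and -1.24 and -1.53 in cluster 4. In clusters 6 and 7 the order was turned, at -1.38 and -1.09, and at -0.55 and -0.40. Over the genes with RPKM above 2 in all 8 libraries, 628 short and 6448 long, the median of the short ones was 0.55 above the long ones in cluster 5, 0.89 above in cluster 2, 0.29 above in cluster 1, 0.27 above in cluster 3, 0.15 above in cluster 4, 0.12 below in cluster 6 and 0.20 below in cluster 7 (log2). Spearman's r of exon length with log2 over the input, over the same genes, was 0.0449, -0.121, -0.0121, 0.00143, -0.0162, 0.175 and 0.207 in clusters 1 to 7. Elane, also short, was at 16.7% of the input in cluster 5, where Camp was at 87.1% (by totals). The part of length in the difference between Camp and the other late genes was not tested.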

How the data were processed

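RNA-seq of 7 sorted populations and the input was analysed, with 1 library each. Unnormalized read counts of each Ensembl gene were deposited by the authors, beside the summed exon length in bases. According to the Methods, low-quality bases (Phred 20) were trimmed, reads under 25 bases were removed, and reads were aligned by TopHat2 in Partek Flow version 2.2 to mm9, whereas the coordinates in the count tables match GRCm38. The tool that counted reads, and its handling of strand and of shared reads, are not given in the sources used here. The labels and the Methods differ in the library kit and the amount of RNA, and the labels' extraction protocol describes crushed marrow.

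From these counts RPKM was calculated with the library total over all genes, and was used as log2(RPKM + 1). A gene entered a comparison with RPKM above 2 in either library (or in a sorted library) and was called at a fold above 2. Symbols were found for 32464 of the 49315 genes. Of the 75 listed genes, 71 were matched by symbol and 4 by RefSeq synonym or position. A listed marker gene is not reported here. TMM factors (edgeR 4.0.16) and DESeq2 1.42.0 size factors served as alternatives, in R 4.3.3. Tests of either tool were not used, because a population had 1 library. Intervals are exact for counts and their ratios and Wilson for shares. The 5 genes most alike each group had RPKM above 2, at least 50 counts in their highest library, a span above 2-fold and a symbol. The members, lists, motifs and comparisons were chosen with earlier results of these data known. In simulated counts of 49315 genes, 197 to 200 of 200 genes lowered 4-fold in a sorted library against the input were called, with at most 160 calls on unchanged genes. The simulation drew Poisson counts from a composition shared by all libraries and lowered only genes well above the RPKM filter. The real libraries differ in composition, so these numbers do not give the error of calls in these data. Totals ranged from 12833648 to 33238133, and the lowest count of a member was 348. Tables were handled in pandas 2.3.3 and numpy 2.4.6 (Python 3.11.15), intervals in scipy 1.17.1 and plots in matplotlib 3.10.9.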

Additional observations from a re-analysis of the deposited data

How the results depend on the processing

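The late median (or mean) stayed above that of the early genes in all 8 libraries under each alternative (by 2.65 to 5.83 in log2, the lowest value being that of cluster 3 with means in place of medians). With TMM factors and with DESeq2 size factors, the calls of late genes below the input, summed over the 7 sorted libraries, went from 20 to 10 with either, and those of early genes from 22 to 14 with either. The span of the late median (2.13 in log2) was 2.10 with TMM factors, 2.08 with DESeq2 size factors, 2.11 with totals without Rn18s-rs5, Lars2 and mmu-mir-689-2, 1.76 with S100a8 and S100a9 counted as late and 1.31 without Lcn2, in the last case with cluster 5 highest. The span of the early median (1.96) was 2.05 with TMM factors and 2.03 with DESeq2 size factors. The span of the late minus early difference (1.43) was 1.79 with S100a8 and S100a9 counted as late and 2.37 without Lcn2. The cause was not tested, beyond the fewer or added genes in the last 2.

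Leaving out each sorted library in turn (the omission of all but cluster 5 was chosen after seeing the data) gave spans of 1.20 to 2.13 for the late median, 1.38 to 1.96 for the early median and 1.00 to 1.43 for the difference, the lowest being without cluster 7, cluster 7 and cluster 5. It gave 16 to 20 late calls, 18 to 22 early calls and 5 to 10 genes highest in the leading library, which was cluster 6 without cluster 7. Over all alternatives, library omissions included, 84 of the 102 values of these results stayed within counting error or 1.5-fold of a count. Many of these could not move. A change of the late list leaves the early values as they were. Leaving out a library that is neither highest nor lowest leaves a span unchanged. The number that stayed is therefore no measure of robustness. Of the values for single libraries, for single genes and for the genes most alike each group, 84 stayed and 26 moved. No paired analysis was possible because no population was sequenced more than once, and no replicate could be left out. A pseudocount of 0.1, an RPKM minimum of 10 or none, thinning to the lowest total, and totals without mitochondrial and haemoglobin genes moved none of these values past those limits. The RPKM minimum could not move them, since every member was above RPKM 10 in all libraries. Depth did not limit the members, all of which had at least 348 reads, but counting error is the only error that 1 library shows.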
